A study of Mus musculus with 33 samples.

Results

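The genes described here encode the proteins of the cytoplasmic ribosome. They were chosen by symbol, as the rows named Rpl or Rps followed by a number and at most a single letter a, x, l or y, together with Rpsa and Rplp0 to Rplp2, pseudogenes left out, whose mean normalized read count reached 10 over the libraries of a tissue label. Of 82 rows with such a symbol, 80 reached this minimum, out of 56414 rows in all, of which 36109 held a read. All 80 reached it under both labels, 32 of them encoding small-subunit and 48 large-subunit proteins. Just inside the minimum stood Rpl39l, a testis-enriched copy of Rpl39, with means of 35.3 and 23.9 under the spleen and lymph node labels. Just outside stood Rpl3l, the striated-muscle copy of Rpl3, with means of 2.38 and 9.02, whereas Rpl10l, a testis copy of Rpl10, held 0 reads in all 33 libraries.

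C57Bl/6 mice without tumors were left untreated or were given the vitamin B3 amide nicotinamide (NAM) at 0.5% in their drinking water, for a duration of 1, 3 or 14 days, before RNA was sequenced. The labels describe RNA taken from the removed organs, whereas the study's text speaks of splenocytes and lymph node cells, so whether the organs were first made into a cell suspension is not settled by the sources used here. The spleen label is carried by 20 libraries, with 5 in every group. The lymph node label is carried by 13, with 3 from untreated mice and with 2, 4 and 4 from the successive durations. The animals carried no transgene or deletion according to the labels, which give no age and do not say whether an animal gave both tissues. P-values therefore measure the spread between libraries, and groups of 2 and 3 give it little precision.

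The tissue labels go against 2 defining genes. Glycam1, made by the high endothelial venules of lymph nodes, and Spic, the regulator of splenic red pulp macrophages, both contradicted the label in 33 of 33 libraries. Groups are therefore called by their label throughout. Among the libraries labelled spleen, replicate 1 at 3 days stood apart from the other 4 of its group, and under the lymph node label replicate 1 at 1 day carried pancreatic acinar genes, with a summed level of 107412 against 14.5 in replicate 2. Counts of members called in comparisons that use these libraries are given with and without them. Depth was 18325061 to 54830743 reads per library labelled spleen and 30424968 to 46733974 per library labelled lymph node.

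Each ribosome is built from a single copy of most of these proteins plus the ribosomal RNAs, so cells coordinate the output of the whole gene family. The mRNAs of vertebrate ribosomal proteins begin with a run of pyrimidines, the 5′ terminal oligopyrimidine (TOP) tract, through which mTORC1 signaling controls their translation. In lymphocytes, activation raises ribosome production before cells divide. Several family members also have duties off the ribosome, for instance RPL5, RPL11 and RPL23 as binding partners of the p53 ligase MDM2. Because mRNA and not translation was measured here, control through the TOP tract itself is outside these values.

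The start-site sequences of members that changed most are shown first, since the pyrimidine run is the feature the family is known to share. Each window holds 30 bases on the strand of the gene, 15 before the annotated start and 15 from the start on, from RefSeq on GRCm38.p6, the mm10 assembly. Capitals mark the longest run of C or T anywhere in the window, which need not be the TOP tract. Counted from the start, with negative positions before it, the run began at 7 in Rpl39 and Rpsa and at 4 in Rps26. It began at −1 in Rps6, −7 in Rpl27, −9 in Rpl24 and Rpl23, −12 in Rps27l and −13 in Rpl37. Of 2 annotated starts of Rps27l, the upstream 1 is shown, and the window of the other has a longest run of 4 bases. Rps6, the substrate of S6 kinase, is included as the member best known from mTOR signaling.
Rpl39, chrX:37085208-37085237, minus strand: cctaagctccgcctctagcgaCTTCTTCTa
Rpl37, chr15:5116598-5116627, plus strand: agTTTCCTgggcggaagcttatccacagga
Rpl24, chr16:55966260-55966289, plus strand: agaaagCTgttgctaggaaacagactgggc
Rps27l, chr9:66946071-66946100, plus strand: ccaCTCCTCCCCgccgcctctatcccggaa
Rps26, chr10:128626492-128626521, minus strand: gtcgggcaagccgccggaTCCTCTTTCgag
Rpl23, chr11:97782425-97782454, minus strand: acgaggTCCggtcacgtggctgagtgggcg
Rpl27, chr11:101442230-101442259, plus strand: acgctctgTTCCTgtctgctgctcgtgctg
Rpsa, chr9:120127751-120127780, plus strand: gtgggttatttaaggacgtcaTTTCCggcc
Rps6, chr4:86857353-86857382, minus strand: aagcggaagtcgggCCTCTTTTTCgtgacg
Both the members that rose and those that fell at 1 day under the spleen label include windows with a long run (Rpl39, Rps26) and windows with a short one (Rpl24, Rpl23).

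A promoter sequence was matched for 59 of the 80 members, some with several starts, giving 70 member promoters. The median longest pyrimidine run anywhere in the window was 6.5 bases among these and 4 among 32851 mouse promoters of the same length. Promoters of chromosome 18, which holds Rps14 and Rpl17, were left out of both. A run of at least 8, wherever it lay in the window, was present in 28 of the 70 (40%), against 12% of the 32851. The letters CTCTTT, read on the strand of the gene within the window, were found in 8 (11.4%, against 1.13%), and CTTTCC in 10 (14.3%, against 1.42%). These matches can overlap the runs just counted. Across the full 300 bases and both strands, CTTCCG, the core bound by ETS-family factors such as GABPA, was present in 44 (62.9%, against 16.9%). By contrast, the MYC and MAX E-box CACGTG was present in 8 (11.4%, against 7.15%) and the TATA box letters TATAAA in 7 (10%, against 13.6%). A match describes letters only and is not a bound site.

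The 80 members together took between 4.49% and 7.58% of the reads of a library labelled spleen. Their share was 5.78% ± 0.708 (SD, n = 5) in untreated mice, 6.25% ± 0.919 (n = 5) at 1 day, 6.15% ± 1.01 (n = 5) at 3 days and 5.67% ± 0.490 (n = 5) at 14 days. The 4 groups overlapped, and replicate 1 at 3 days was the lowest of all 20. Under the lymph node label the share was 7.08% ± 0.312 (n = 3) in untreated mice, 7.77% ± 0.264 (n = 2) at 1 day, 7.74% ± 0.351 (n = 4) at 3 days and 7.53% ± 0.189 (n = 4) at 14 days. Both 1-day libraries, at 7.96% and 7.59%, lay above the untreated ones at 6.76%, 7.38% and 7.10%. In bulk RNA, more RNA of a gene per cell and more cells of a type rich in it cannot be told apart. Rows with a ribosomal protein pseudogene symbol numbered 8 and took 0.221% to 0.359% of reads, and whether further reads of the members were counted at unnamed copies was not tested.

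**Figure D1:**
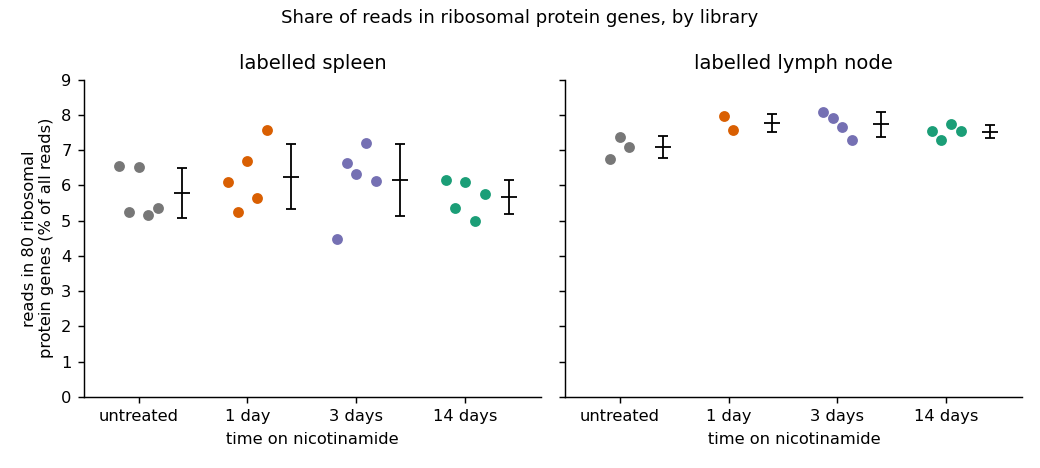
Percent of a library's reads in the 80 ribosomal protein genes (vertical axis) by group and tissue label (horizontal axis), with a point per library and the group mean ± SD. Under the spleen label the groups overlap, from 4.49% to 7.58%; under the lymph node label the untreated libraries span 6.76% to 7.38% and the 1-day libraries 7.59% to 7.96%.

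After 1 day of NAM under the spleen label, ribosomal protein mRNAs moved in both directions, with more rises than falls. A total of 18 members rose and 4 fell, with changes from −0.50 to 1.20 on the log2(normalized count + 1) scale. The rises included Rpl39, Rpl37 and Rpl24 of the large subunit, the falls Rpl23 and Rpl27 of the large and Rps26 and Rpsa of the small subunit. These calls come from limma with Benjamini-Hochberg adjustment at 0.05 over all 18243 rows tested. With 22 of 80 members called (27.5%), the background over all rows was 16.6% called, of which 8.56% were higher and 8.05% lower. The median change was 0.24 among members and 0.01 among all rows, and 63 of the 80 had a positive sign. The quartiles were 0.02 and 0.50 among members and −0.20 and 0.21 among all rows, so members were spread about as widely as all rows. The share of members that rose was above that of all rows, and the share that fell was below it. Of the small subunit 9 members rose and 2 fell (median 0.36), and of the large subunit likewise 9 rose and 2 fell (median 0.19). In 15 members every 1-day library lay above every untreated one (6.42% of all rows did so), and in 2, Rpl23 and Rpl27, every one lay below (5.47% of all rows).

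Rpl39 (chrX:37082518-37085222), a small basic protein lining the exit tunnel for the nascent chain, had the largest rise. Its normalized counts were 7883, 5984, 9112, 5975 and 6042 in untreated mice and 13780, 13005, 17117, 14317 and 22391 at 1 day. They were 5066, 14829, 14791, 17807 and 15032 at 3 days and 7431, 7113, 7559, 5491 and 8264 at 14 days. All 1-day libraries and 4 of 5 at 3 days lay above the untreated range, replicate 1 at 3 days lay below it, and the 14-day libraries overlapped it. The 1-day difference was 1.20 ± 0.25 (SE) in log2, with an adjusted p of 0.00368 by limma.

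Rpl37 (chr15:5116613-5119140), a zinc-binding protein of the large subunit, also had its highest mean at 1 day. It had 821, 743, 1005, 590 and 737 normalized counts in untreated mice, 1223, 1666, 1833, 1368 and 3302 at 1 day, 629, 1586, 1505, 1944 and 1561 at 3 days, and 786, 856, 839, 739 and 1041 at 14 days. The 1-day difference was 1.20 ± 0.26 in log2 (limma adjusted p = 0.00462). Rpl24 (chr16:55966275-55971437), whose protein reaches across to the small subunit as an intersubunit bridge, had 1125, 823, 1308, 876 and 907 in untreated mice and 1833, 1724, 2010, 1799 and 2625 at 1 day. All 5 treated libraries again lay above all 5 untreated ones, a difference of 0.99 ± 0.19 in log2 (limma adjusted p = 0.00235).

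Rps27l (chr9:66946076-66949522), a p53-induced copy of the small-subunit gene Rps27, had the smallest p of all members at 1 day. Its normalized counts were 1248, 1228, 1315, 1161 and 1245 in untreated mice and 1919, 2459, 2147, 2047 and 2462 at 1 day. They were 1236, 2000, 2069, 2062 and 2149 at 3 days and 1238, 1433, 1409, 1305 and 1384 at 14 days. The 1-day difference was 0.83 ± 0.12 in log2 (limma adjusted p = 0.000379), and the groups did not overlap. Its paralog Rps27 had a difference of 0.58 that missed the threshold (adjusted p = 0.0874, limma).

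The falls at 1 day were smaller than the leading rises. Rpl23 (chr11:97777526-97782439), an MDM2 partner, had 36252, 26297, 34135, 26561 and 25692 normalized counts in untreated mice and 19893, 17846, 24103, 19696 and 25176 at 1 day, a difference of −0.48 ± 0.13 in log2 (limma adjusted p = 0.0171). Rpl27 (chr11:101442245-101445596), a large-subunit protein, had 10029, 7410, 10645, 7665 and 7493 against 6271, 5583, 6874, 5943 and 7252, a difference of −0.43 ± 0.10 (limma adjusted p = 0.00876). For both, every treated library was below every untreated one.

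Rps26 (chr10:128624529-128626506), a protein at the mRNA exit channel of the small subunit, had 21356, 15861, 21384, 13996 and 15047 in untreated mice and 10426, 10889, 13424, 10705 and 16811 at 1 day, a difference of −0.50 ± 0.14 (limma adjusted p = 0.0200). Rpsa (chr9:120127766-120132369), known also as the laminin receptor, had 94087, 67111, 91907, 65618 and 66040 against 55091, 50242, 63066, 52312 and 73526, a difference of −0.38 ± 0.12 (limma adjusted p = 0.0411). In both, 4 of 5 treated libraries lay below the untreated range and replicate 5 lay within it. The call for Rps26 was lost without untreated replicate 1, untreated replicate 3 or 1-day replicate 4 (adjusted p of 0.0588, 0.0540 and 0.0542), and that for Rpl23 without untreated replicate 1 (0.051).

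**Figure D2:**
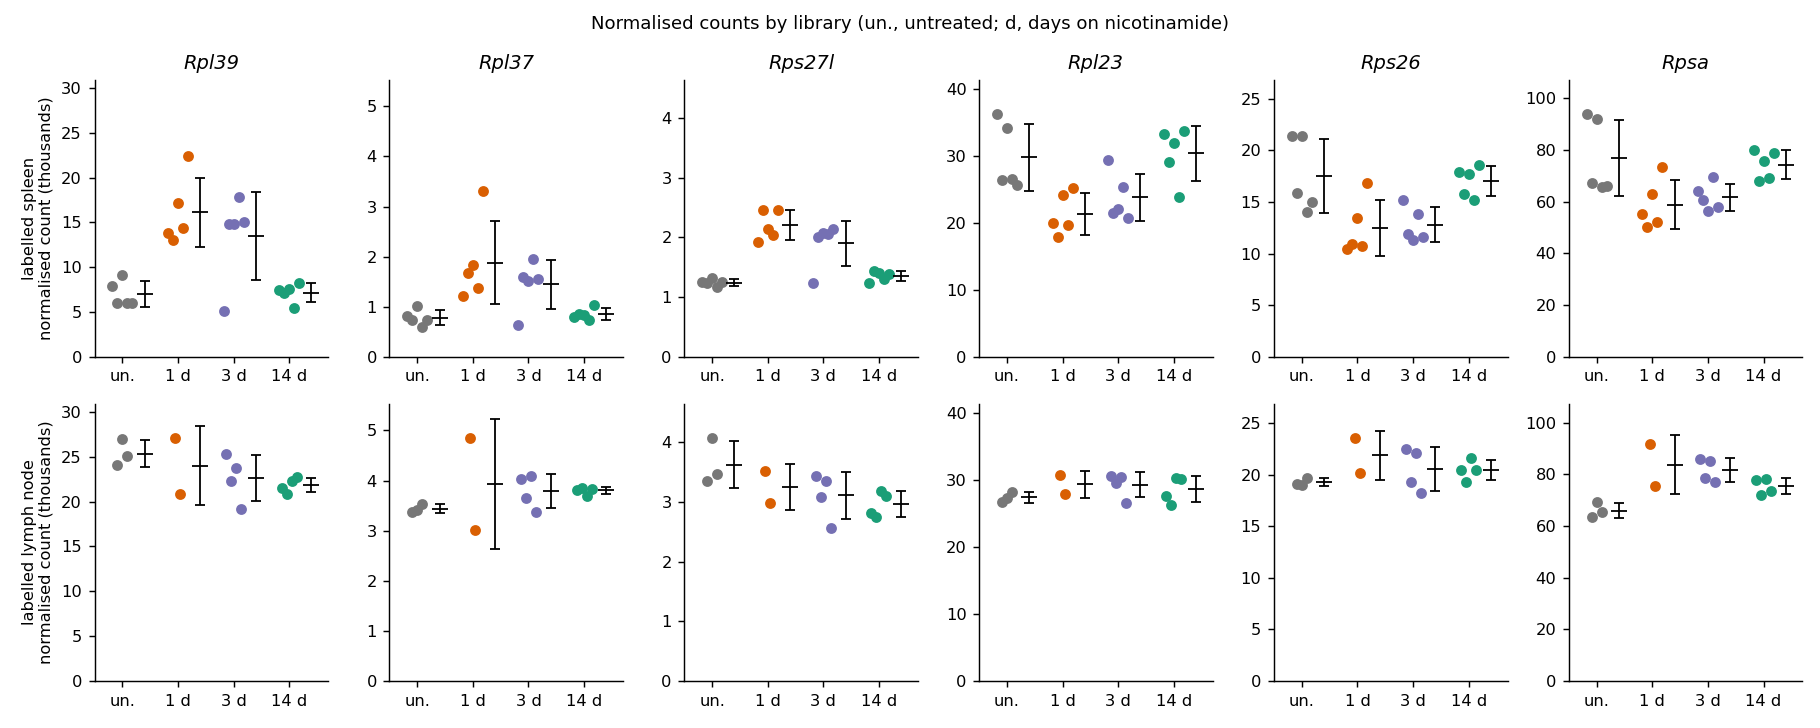
Normalized read counts (vertical axes) of Rpl39, Rpl37, Rps27l, Rpl23, Rps26 and Rpsa by group (horizontal axis) under each tissue label, with a point per library and the mean ± SD. Under the spleen label the 1-day libraries of Rpl39, at 13005 to 22391, stand above the untreated ones at 5975 to 9112, whereas those of Rpl23, at 17846 to 25176, stand below the untreated ones at 25692 to 36252.

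The other rises at 1 day were spread over both subunits. Among small-subunit genes were Rps13 (0.83, adjusted p = 0.0117), Rps23 (0.76, 0.0102), Rps19 (0.73, 0.0110), Rps12 (0.72, 0.00927), Rps27a (0.71, 0.0102), Rps21 (0.63, 0.0167), Rps25 (0.62, 0.0127) and Rps4x (0.54, 0.0302), all log2 differences with limma adjusted p. Rps19 is the gene most often mutated in Diamond-Blackfan anemia, and Rps27a encodes a ribosomal protein fused to ubiquitin. Among large-subunit genes were Rpl9 (0.81, 0.00644), Rpl12 (0.72, 0.00943), Rpl31 (0.57, 0.0311), Rpl36 (0.44, 0.0346) and Rpl5 (0.30, 0.0360), with Rplp2 (0.50, 0.0414) of the stalk that recruits elongation factors.

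Members chosen for their known roles and not for their values included several that missed the threshold at 1 day. The partners of Rplp2 in the stalk had differences of −0.12 (Rplp0) and −0.19 (Rplp1) in log2. Rpl3, near the peptidyl transferase center, had −0.16, and Rpl10, needed for subunit joining, had 0.34. Rps6 had 0.22, Rpl22, needed in T cell development, 0.24, Rpl13a, often used as a reference gene, 0.37, and Rpl41, the shortest member, 0.18. The low copies Rpl39l and Rps4l had 0.35 and 0.01. Thus Rpl39 and Rplp2 passed the threshold and their relatives Rpl39l, Rplp0 and Rplp1 did not, although the differences within these pairs were not tested.

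The untreated libraries labelled spleen differed among themselves by as much as the 1-day median moved. Against the other 4 untreated libraries, the members' median difference was 0.295, −0.213, 0.337, −0.213 and −0.205 in log2 for replicates 1 to 5. For the 1-day libraries against the untreated mean it was 0.140, 0.072, 0.380, 0.060 and 0.598. All 8 markers of fat cells held reads under this label, and their summed level was lowest in untreated replicates 1 and 3, at 39194 and 76380, against 161144 to 213482 in the other 3. At 1 day it was 130461 to 556662, at 3 days 64009 to 253846 and at 14 days 53980 to 269969. Neutrophil markers summed to 208 to 1146 in untreated mice and to 573 to 10775 at 1 day. Of 7 T cell and 6 B cell markers, 2 each were lower at 1 day, with sums of 40091 to 57708 against 30411 to 56179 and of 67242 to 85024 against 53986 to 75699. Epithelial markers summed to 1054 to 7497 against 3067 to 16183, and skeletal muscle markers to 187 to 301 against 149 to 184. The part of these markers in the members' values was not tested. The spread of differences from member to member separated the groups more clearly than their median, with an SD over members of 0.0868 to 0.119 in untreated libraries and of 0.346 to 0.448 at 1 day.

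**Figure D3:**
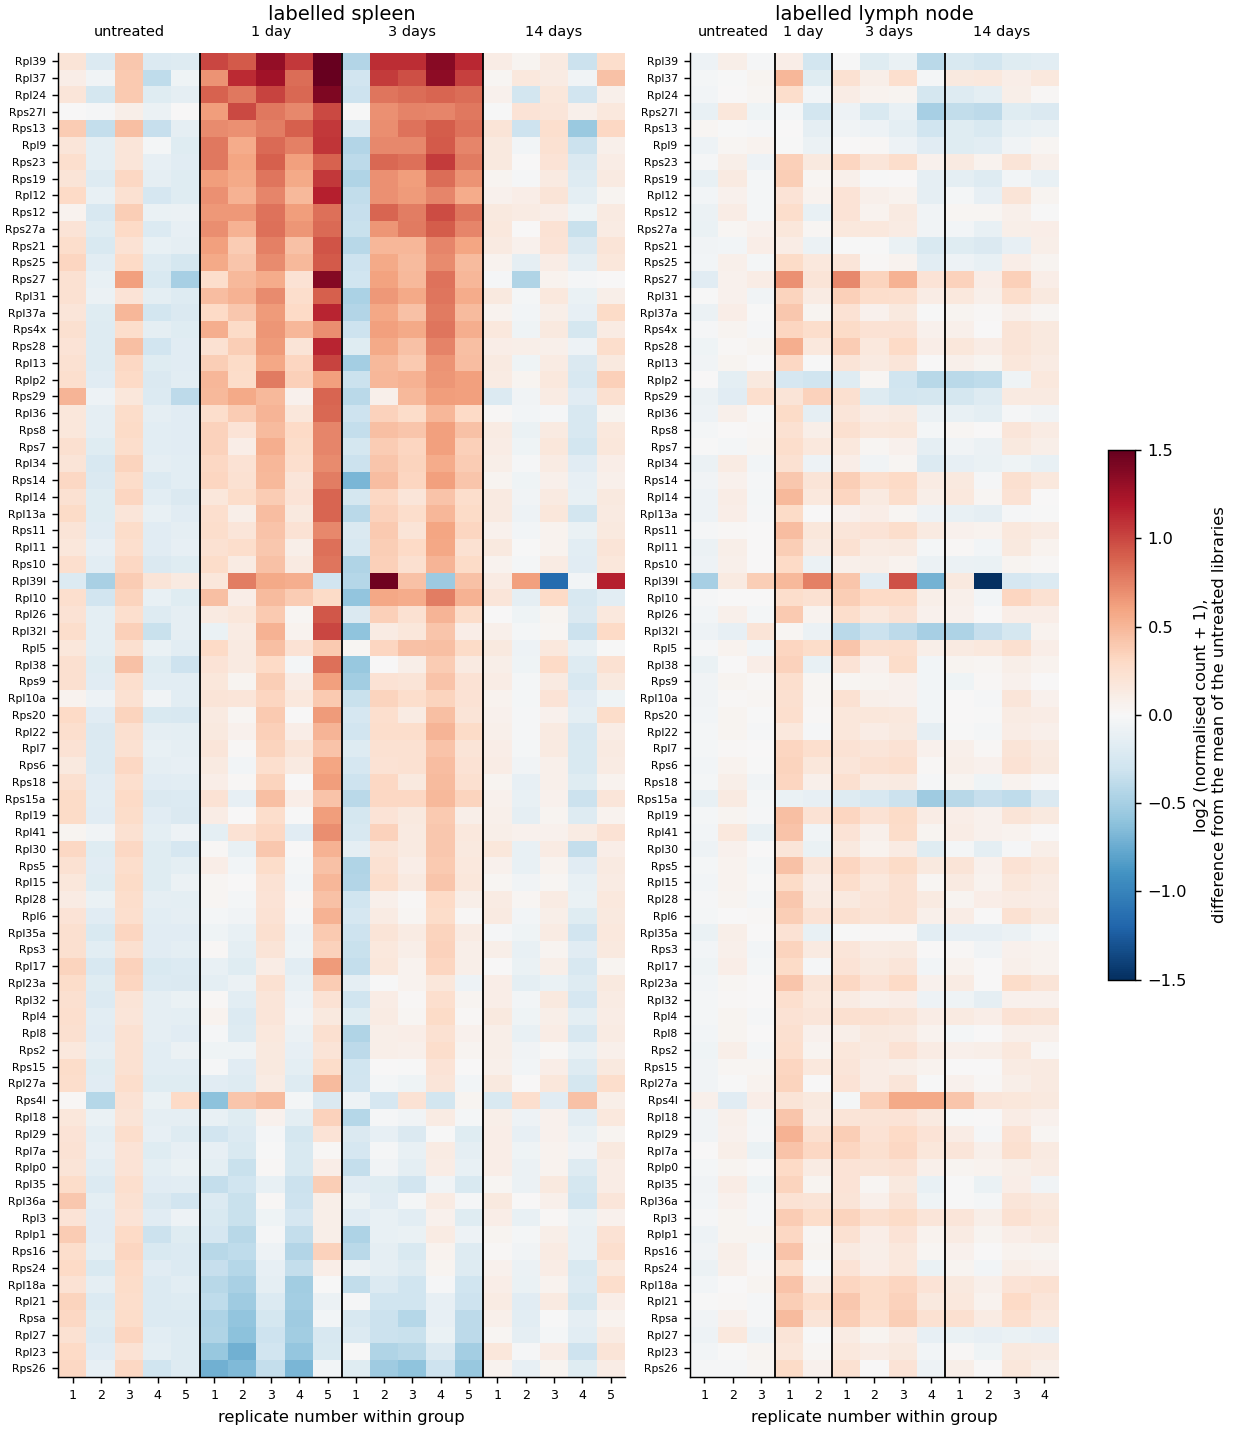
Difference of the members (rows, all but 1 of the 80, ordered by the 1-day change under the spleen label) from the untreated mean of its label in each of the 33 libraries (columns), in log2, with the color scale ending at 1.5 in either direction. Under the spleen label, a gradient along the rows is fixed by the ordering in the 1-day libraries and removed by the centering in the untreated ones. Of the others, replicates 2 to 5 at 3 days show a like gradient, and the 14-day libraries and replicate 1 at 3 days do not.

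At 3 days under the spleen label 2 members rose and 0 fell, with 5.55% of all rows called (2.82% higher and 2.74% lower). They were Rps27l (0.59 ± 0.12 in log2, adjusted p = 0.0108) and Rps12 (0.61 ± 0.17, adjusted p = 0.0451), both by limma. The call for Rps12 was lost when any library of the compared groups was left out except untreated replicate 3 and 3-day replicate 1 (highest adjusted p 0.126). Rpl39 had 0.85 and an adjusted p of 0.0505 by limma. The median over the members was 0.17, and 60 of the 80 were positive. Members with all 3-day libraries above all untreated ones numbered 0 (2.46% of all rows), and those with all below numbered 0 as well (2.60%). This count depended on replicate 1. Without it 27 members rose and 2 fell, with 15.2% of all rows called (8.12% higher and 7.13% lower), and the members' median was 0.276.

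The 3-day and 1-day groups were also compared directly, in a comparison added after the data were seen. No member differed by limma, 0 had an unadjusted p under 0.05, and 0.00548% of all rows were called, with replicate 1 at 3 days or without it. A count of 0 does not show that the groups were alike.

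At 14 days under the spleen label 0 members were called, 0 had an unadjusted p under 0.05, and edgeR and DESeq2 on the recovered reads called 0 as well, while 0% of all rows were called by limma. Differences ranged from −0.08 to 0.14 with a median of 0.02. The members with the smallest p were Rps27l (0.13) and Rpl41 (0.11), both with a limma adjusted p of 1. The mean of Rpl39 was 6999 ± 1435 (SD, n = 5) in untreated mice and 7172 ± 1030 (n = 5) at 14 days, and that of Rpl37 779 ± 151 and 852 ± 115.

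Set against 1 day, the 14-day libraries had 15 members lower and 3 higher, with 10.6% of all rows called (5.22% higher and 5.41% lower). The comparison shares its 1-day libraries with that against untreated mice. Lower were Rpl39 (−1.15, adjusted p = 0.00770), Rpl37 (−1.06, 0.0145), Rpl24 (−1.04, 0.00339), Rps13 (−0.85, 0.0149), Rpl9 (−0.79, 0.0114) and Rps27l (−0.70, 0.00194), and 9 more. Higher were Rpl23 (0.51, 0.0175), Rps26 (0.48, 0.0336) and Rpl27 (0.39, 0.0197), all log2 differences with limma adjusted p. The call for Rps26 was lost without any of replicates 1, 3 and 5 at 14 days or 1, 2 and 4 at 1 day (highest adjusted p 0.0843). In 24 members every 14-day library lay below every 1-day one (5.26% of all rows did so) and in 1 every one lay above (4.42%). Skeletal muscle markers summed to 149 to 184 at 1 day and to 188 to 249 at 14 days, without overlap. The sums of the other marker lists overlapped between these groups, and the part of the markers in the members' values was not tested.

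The same difference between members can be read within a single library, where scaling cancels. The ratio of summed small-subunit to large-subunit counts was 0.813 ± 0.0101 (SD, n = 5) in untreated mice labelled spleen, 0.872 ± 0.0049 (n = 5) at 1 day and 0.808 ± 0.0048 (n = 5) at 14 days. At 3 days it was 0.800 in replicate 1 and 0.862 to 0.881 in the other 4. Under the lymph node label all 13 libraries, untreated ones included, lay between 0.861 and 0.887. A shift of this ratio shows that the subunits' mRNAs changed unequally, not which of them changed.

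A division of the libraries labelled spleen by their other genes was read from a principal component analysis. On the second principal component of all tested rows without the members (13.5% of the variance), 9 libraries lay above 0, namely all 5 at 1 day and replicates 2 to 5 at 3 days, and 11 lay below, namely all untreated and 14-day libraries and replicate 1 at 3 days. The first component (30.1%) did not make this division, with scores of −33.4 to 74.3 in the 9 and −62.5 to 34.6 in the 11. The ratio of Rpl39 to Rpl23 was 0.670 to 0.889 in the 9 and 0.173 to 0.267 in the 11, with 0.723 to 0.986 under the lymph node label. In 15 members, which are the same 15 that lay wholly above untreated at 1 day, all 9 lay above all 11 (18.75% of members without overlap, against 4.917% of all rows). The sets were defined from the data, so no test was made of them. Mitochondrially encoded transcripts took 4.85% to 8.29% of reads in the 9 and 8.44% to 14.0% in the 11, against 4.89% to 5.69% under the lymph node label. Because all 1-day libraries are in the first set and all untreated ones in the second, NAM and whatever else separates these sets cannot be told apart at 1 day.

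**Figure D4:**
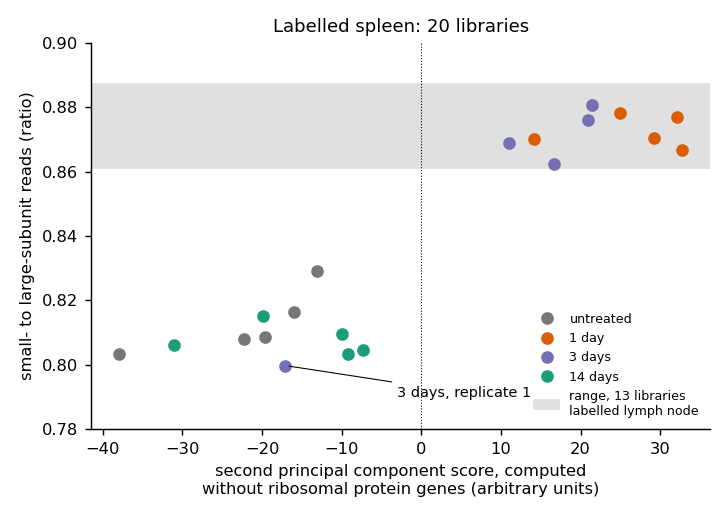
Ratio of summed small-subunit to large-subunit normalized counts (vertical axis) against the score on the second principal component computed without the 80 members (horizontal axis), with a point for each of the 20 libraries labelled spleen and a grey band for the range of the 13 libraries labelled lymph node. The 9 libraries above 0 have ratios of 0.862 to 0.881, close to the band of 0.861 to 0.887, and the 11 below 0 have lower ratios, down to 0.800.

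Under the lymph node label, 1 day of NAM was accompanied by a small rise in 4 members and a fall in 0, with 1.21% of all rows called (0.884% higher and 0.329% lower). EdgeR also called 4 (1.22% of all rows) and DESeq2 19 (2.99%), whereas limma called 1 with total-read scaling (0.763%) and 0 without the filter on low rows (0.423%), where 38 had an unadjusted p under 0.05. The median over the 80 members was 0.20 in log2 and 73 were positive. In 40 members both treated libraries lay above all 3 untreated ones, where 17.1% of all rows did so, and in 1 both lay below (15.5%). Of the 4 called, 3 are described here, all of the large subunit. Rpl29 had 26468, 28674 and 27056 normalized counts in untreated mice and 39349 and 32411 at 1 day, a difference of 0.38 ± 0.0908 (limma adjusted p = 0.0498).

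Rpl7a, a large-subunit protein, had 11885, 12541 and 11055 against 15832 and 14620, a difference of 0.37 ± 0.0759 (limma adjusted p = 0.0259). Rpl3 (chr15:80077781-80083406) had 29592, 30898 and 29655 against 39042 and 36276, a difference of 0.33 ± 0.0706 (limma adjusted p = 0.0334). None of these 3 had been called higher at 1 day under the spleen label, where Rpl3 had −0.16 in log2. A test of that difference between the labels did not call them.

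Replicate 1, which carried the acinar genes, had 76 members above the untreated mean and a median difference of 0.303, and replicate 2 had 57 above and a median of 0.0701. Each untreated library, set against the other untreated ones, had a median of −0.0698, 0.0689 or −0.00861, so that replicate 2 lay about level with the highest of them. In 78 of 80 members replicate 1 was the higher. With both libraries, 2726 of 18215 rows had an unadjusted p under 0.05. Members with an unadjusted p under 0.05 numbered 39 with both libraries and 11 without replicate 1, where limma called 0 (0.379% of all rows, 0.242% higher and 0.137% lower). Without replicate 2 limma called 10 (0.653%, of which 0.505% higher and 0.148% lower). In these fits the lone treated library is assumed to vary like the other groups. The count was also 0 without untreated replicate 1 or 3 (108 and 125 of 18215 rows called) and 1 without untreated replicate 2 (66 rows called). The summed level of plasma cell markers was 67669 to 70379 in untreated mice and 91862 to 151013 at 1 day, and that of red cell markers 21240 to 31937 and 14427 to 20693. Neutrophil markers went from 10743 to 21087 in untreated mice to between 24660 and 34588, lymph node markers from 7005 to 9417 to between 13671 and 15396, and T cell markers from 22675 to 24309 to between 25552 and 26819, none of them overlapping. Epithelial markers, at 389 to 507 in untreated mice and 537 to 546 at 1 day, did not overlap either. The part of all these markers in the members' rise was not tested.

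**Figure D5:**
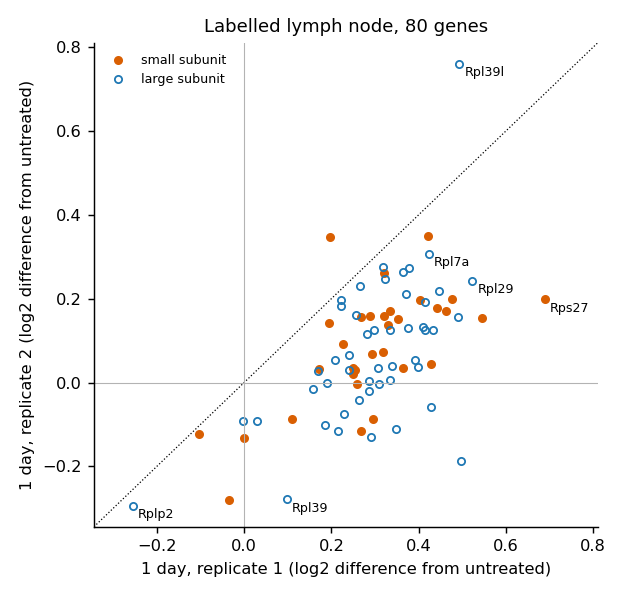
Difference of each of the 80 members from the untreated mean under the lymph node label, in log2, in replicate 1 (horizontal axis) and replicate 2 (vertical axis) at 1 day, with a point per gene. Most points lie above 0 in both libraries, and 78 of 80 lie on the side of replicate 1, which carried pancreatic acinar genes.

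After 3 days, the lymph node label had Rpl3 alone called, with 1.24% of all rows called (0.335% higher and 0.906% lower). Its normalized counts were 37763, 35541, 36731 and 33979, all above the untreated 29592 to 30898, a difference of 0.26 ± 0.0591 in log2 (limma adjusted p = 0.0407). The median over the members was 0.12, with 67 positive. In 28 members all 4 treated libraries lay above the untreated ones (8.09% of all rows) and in 3 below (7.25%). Rpsa had 63401, 69179 and 65313 in untreated mice and 86064, 78690, 85011 and 77016 at 3 days, a difference of 0.31 with a limma adjusted p of 0.0510. The call for Rpl3 was lost when any untreated library or any of 3-day replicates 1 to 3 was left out (highest adjusted p 0.154), and 9 members were called without 3-day replicate 4 (1.66% of all rows, 0.571% higher and 1.09% lower). All 8 red cell markers fell at 3 days, their sum reaching 2263 to 12039. Lymph node markers summed to 7005 to 9417 in untreated mice and to 9672 to 14064 at 3 days, without overlap. Whether these markers bear on the members' share of reads was not tested.

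After 14 days, the lymph node label had 0 members called by limma and by edgeR, DESeq2 called 1, and 15 had an unadjusted p under 0.05, as did 2157 of all 18215 rows. Limma called 0.791% of all rows (0.110% higher and 0.681% lower). The median was 0.06 and the range −0.55 to 0.23, with 58 of the 80 positive. In 19 members all 4 treated libraries lay above the untreated ones (5.49% of all rows) and in 5 below (6.02%). The summed level of red cell markers was 21240 to 31937 in untreated mice and 9390 to 14160 at 14 days, with 2 of the 8 called lower, and that of spleen markers 63457 to 73351 and 37773 to 58214, with 1 of 6 called lower. Neither sum overlapped between the groups, and their part in the members' values was not tested. The smallest p belonged to Rps15a (chr7:118104378-118116188), a small-subunit protein, with 40336, 47491 and 42664 normalized counts in untreated mice and 32394, 34158, 33273 and 37473 at 14 days. All treated libraries lay below, a difference of −0.34 ± 0.0819 in log2 (limma adjusted p = 0.0652). DESeq2 gave it an adjusted p of 0.00585. Rps27l had the next smallest p, with −0.29 and a limma adjusted p of 0.239. Against 3 days, 0 members were called at 14 days by limma, edgeR or DESeq2. An unadjusted p under 0.05 was held by 3 members and by 1064 of 18215 rows, and 0.0110% of all rows were called. The smallest p there belonged to Rpl29 (−0.19) and Rpl27 (−0.15), with limma adjusted p of 0.743 and 0.838.

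Whether the change against untreated mice differed between the labels was tested as an interaction over 17147 rows, in which a difference of scaling between the labels cancels. At 1 day 2 members differed, with 1.69% of all rows called (0.811% higher and 0.881% lower). Rps27l rose under the spleen label and had −0.16 under the lymph node label, where untreated libraries held 3342, 4071 and 3460 normalized counts and the 1-day libraries 3524 and 2972. The difference of the changes was 0.98 ± 0.19 in log2 (limma adjusted p = 0.00774). Rpsa fell under the spleen label and had 0.34 under the lymph node label (63401, 69179 and 65313 against 91721 and 75652, adjusted p = 0.0747), a difference of −0.72 ± 0.19 (limma adjusted p = 0.0423). The call for Rps27l was lost without lymph node replicate 2 at 1 day (0.86, adjusted p = 0.0797) and kept without replicate 1 (1.11, adjusted p = 0.0262). The call for Rpsa was lost under 10 of the libraries left out in turn, among them lymph node replicate 1 at 1 day (−0.58, adjusted p = 0.216). Without that library Rps27l was the 1 member called, with 0.338% of all rows (0.105% higher and 0.233% lower).

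Rpl39, with 24062, 26954 and 25083 normalized counts in untreated mice and 27118 and 20887 at 1 day under the lymph node label, had a difference of 1.29 between the labels that missed the threshold (limma adjusted p = 0.0634), and 1.48 without lymph node replicate 1 (limma adjusted p = 0.122). At 3 days Rps27l was the member called (0.82 ± 0.17, limma adjusted p = 0.0189), with 0.735% of all rows called (0.525% higher and 0.210% lower). Without spleen replicate 1 at 3 days 16 members differed, with 5.15% of all rows called (3.20% higher and 1.95% lower), and Rps27l had 0.97 (limma adjusted p = 2.91e-05). Its call was lost without untreated lymph node replicate 2 (0.73, adjusted p = 0.102). At 14 days 0 members were called by limma, edgeR or DESeq2, 1 had an unadjusted p under 0.05, and 0.140% of all rows were called (0.134% higher and 0.00583% lower). Rps27l had the smallest p, with 0.41 and a limma adjusted p of 0.886.

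Genes that surround the ribosome were read from lists chosen by function, and their counts are to be set against the 8.56% of all rows higher and 8.05% lower at 1 day under the spleen label, and the 2.82% and 2.74% at 3 days. Of 6 tested ribosomal protein genes that the symbol rule leaves out, Rpl22l1, the paralog of Rpl22, rose at 1 day under the spleen label, from 914 ± 167 to 2790 ± 420 (SD, n = 5 each), or by 1.61 in log2 (limma adjusted p = 0.00197). It stood at 2354 ± 1003 at 3 days (1.18, limma adjusted p = 0.0302), at 2796 ± 192 (n = 4) without replicate 1 at 3 days (1.63, limma adjusted p = 4.75e-07), and at 868 ± 68.4 at 14 days. Rpl22 itself had 0.24. The 17 translation factors and host transcripts of the TOP class had 1 member higher at 1 day, the Snhg1 row, a snoRNA host gene (0.42, adjusted p = 0.0476), with a list median of 0.08 where the 80 members had 0.24. Of 18 genes of ribosome assembly and RNA polymerase I, 1 fell, Nolc1, a nucleolar chaperone (−0.29, adjusted p = 0.0185).

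Of 13 genes that control ribosomal protein mRNA, 2 were called at 1 day under the spleen label, where 16.6% of all rows were, so that the share in this list is near the background, and those in the lists of 17 and 18 are below it. Rheb, the GTPase that activates mTORC1, rose from 1080 ± 55.4 to 1441 ± 95.2 (0.41, limma adjusted p = 0.000823), and Myc, a driver of ribosome production, fell from 1794 ± 178 to 1331 ± 151 (−0.43, limma adjusted p = 0.00369). Both were also called at 3 days, at 0.37 and −0.43, and at 0.38 and −0.48 without replicate 1 at 3 days. The 77 mitochondrial ribosomal protein genes, which serve the separate ribosome of that organelle, had 22 higher and 2 lower at 1 day, with a median of 0.14. Of the rises, Mrpl30 (0.66, limma adjusted p = 0.000528) and Mrpl45 (0.45, 0.000650) had the smallest adjusted p, and Mrpl22 (−0.27, 0.0243) and Mrpl41 (−0.25, 0.0414) were the falls. At 3 days 6 were higher and 2 lower. Without replicate 1 at 3 days 17 were higher and 7 lower, where 8.12% of all rows were higher and 7.13% lower, and the lists of 6, 17, 18 and 13 genes then had 2, 5, 1 and 1 higher and 0, 0, 1 and 4 lower. No gene of these 5 lists was called at 14 days against untreated mice under the spleen label or in any comparison under the lymph node label.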

How the data were processed

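The authors deposited a single table of normalized read counts per gene (a linear signal), in which the counts of a library are scaled with DESeq2. The assembly is mm10 and the annotation that of the sequencing service, per the file headers. Alignment with STAR 2.4.0 is given by the submitters' processing notes, but strand use and the handling of reads shared between copies are not given in the sources used here. Paired reads came from poly(A)-selected libraries. Groups and replicate numbers come from the sample titles. Both labels were scaled separately, so levels were never tested across them. The lengths counted per gene are not given either, so levels are not ranked between genes. Every value returned whole reads (100% within 0.01 of a whole number). Replicates were compared in 56 pairs. None were identical (0), and chi-square was at least 8.927 per degree of freedom.

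Values were tested as log2(normalized count + 1) with limma 3.58.1 (R 4.3.3) with an intensity trend, all 4 groups of a label in a single fit, two-sided, with Benjamini-Hochberg adjustment over 18243 rows (spleen label) or 18215 (lymph node label) with a mean of at least 10. On this scale the change of low genes is understated. Alternatives were DESeq2 1.42.0 or edgeR 4.0.16 run on whole reads, other scalings, filters and weights, a replicate block, and leaving out each library. The gene lists at 3 days without replicate 1, and the shares of rows called for the label differences without a library, were added after the data were seen. Comparisons with untreated mice share those libraries. The row of 8 members also carries other symbols, such as intronic small RNAs. Named members are the 3 with the largest rise and fall among called ones, or the 2 with the smallest p, plus a panel of 19 chosen by role; further called members are listed by value. The values of 1 member are not reported here, although it is counted. The members and lists were chosen with earlier results of these data known. Tested on simulated data, 69% of 200 genes changed 2-fold were recovered for 1 day against untreated under the spleen label. Depth limits the precision of rows with few reads. Figures were drawn with Python 3.11.15.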

Additional observations from a re-analysis of the deposited data

Results flagged for a closer look

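A search of 192 sets of 4 or 5 replicate values for a library far from the others returned 18, where chance marks about 1 set in 20. Most concerned replicate 1 at 3 days under the spleen label. Its ratio of small- to large-subunit counts was 0.800 where the other 4 had 0.862 to 0.881, the SD of its differences over the 80 members was 0.141 where the others had 0.344 to 0.368, and its ratio of Rpl39 to Rpl23 was 0.173 where the others had 0.670 to 0.724. It also lay far below its group in normalized counts of Rpl39 (5066), Rpl24 (799), Rpl10 (3862), Rps12 (2719), Rps27a (2893), Rps27l (1236), Rplp2 (11912) and Rps15a (20421). Its title places it at 3 days, and the reason for its position was not tested.

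Under the same label, replicate 5 at 1 day stood high in Rps27 (6500 normalized counts) and in the ratio of Rpl39 to Rpl23 (0.889), replicate 4 at 3 days stood high in Rpl3 (28634), replicate 4 at 14 days stood low in Rps12 (3289) and replicate 2 at 14 days stood low in Rps27 (1824). Under the lymph node label, replicate 4 at 3 days stood apart in Rplp0 (101772) and replicate 1 at 14 days in Rps4l (777).

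Changes that differed between groups by a test of the difference were those of 2 members between the labels at 1 day (Rps27l and Rpsa) and of 1 at 3 days (Rps27l). Of all rows, 1.69% and 0.735% were called there. Between 14 days and 1 day under the spleen label 18 members differed, with 10.6% of all rows called.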

How the results depend on the processing

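Counts of members called (out of 80) depended on the processing, and so did the share of all rows called, given in parentheses. With limma's library weights the counts under the spleen label were 44 (21.6%) at 1 day and 45 (25.9%) at 3 days, those under the lymph node label 16 (3.06%) at 3 days and 1 (1.53%) at 14 days, with 28 (13.9%) for 14 days against 1 day, and 16 (5.14%) and 26 (11.3%) for the difference between labels at 1 and 3 days. DESeq2 called 15 (9.44%) under the spleen label at 3 days, 19 (2.99%), 15 (2.79%) and 1 (2.10%) under the lymph node label after 1, 3 and 14 days, and 14 (3.98%) and 4 (1.96%) for the label differences at 1 and 3 days. EdgeR called 8 (5.94%) at 3 days under the spleen label and 4 (1.89%) for the label difference at 1 day. At 1 day under the spleen label edgeR called 23 (16.3%) and DESeq2 32 (18.5%). Without the filter on low rows the counts were 1 (1.65%) for the spleen label at 3 days, 0 (0.423%) and 0 (0.581%) for the lymph node label at 1 and 3 days, with 38 and 34 at an unadjusted p under 0.05, and 1 (0.481%) for the label difference at 1 day. At 3 days, TMM scaling gave 5 (5.72%) under the spleen label, with 4 (1.32%) under the other. Total-read scaling gave 1 (0.763%) and 5 (1.13%) for the lymph node label at 1 and 3 days and 2 (0.612%) for the label difference at 3 days. A fit of the compared groups alone gave 0 (0.767%) at 3 days under the spleen label, with 17 at an unadjusted p under 0.05, where Rps27l had an adjusted p of 0.0544. For its tumor data the paper states a rule of a DESeq2 p with a 1.5-fold change. Applied here to unadjusted limma p, such a rule gave, after 1 and 3 days, 13 (8.21%) and 7 (3.40%) under the spleen label. Under the other label it gave 0 (4.91%) and 0 (3.38%). The cause of these shifts was not tested.

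Leaving out each library in turn gave, under the spleen label, 16 to 28 members at 1 day, 1 to 29 at 3 days and 0 at 14 days, under the lymph node label 0 to 10, 0 to 9 and 0, 12 to 18 for 14 days against 1 day, 0 for 14 days against 3 days, and 0 to 9, 0 to 16 and 0 for the label differences at 1, 3 and 14 days. Of all rows, these fits called 2277 to 2887, 158 to 2782 and 0 after 1, 3 and 14 days under the spleen label. Under the lymph node label they called 66 to 125, 85 to 302 and 31 to 159. For 14 days they called 1214 to 1816 rows against 1 day and 0 to 9 against 3 days. The label differences had 75 to 413 rows at 1 day, with both 1-day lymph node libraries kept. At 3 and 14 days they had 33 to 883 and 4 to 26. For the label difference at 3 days, the highest counts of members and of rows arose without spleen replicate 1 at 3 days. The members' median stayed positive at 1 and 3 days (0.158 to 0.301 and 0.101 to 0.276 under the spleen label, 0.0701 to 0.303 and 0.0917 to 0.168 under the lymph node label) and was −0.0271 to 0.0835 and 0.0351 to 0.0859 at 14 days. Of 256 recomputed values of the named members with all libraries kept, 19 lost their call, 2 gained it and 0 changed sign. With a library left out, 49 of 293 lost it and 0 changed sign. Both totals include members named for the smallest p where none was called, which had no call to lose.

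Replicate numbers gave no clear sign of pairing the libraries. Deviations of same-numbered libraries correlated between −0.496 and 0.468 under the spleen label, with 13 of 30 pairs over 0.1, and between −0.107 and 0.0789 under the lymph node label. Those of different-numbered libraries correlated between −0.559 and 0.548, with 41 of 120 pairs over 0.1, and between −0.1 and 0.113. Under the spleen label the medians were 0.0355 for same and −0.00788 for different numbers. The replicate block gave 4 members (5.48% of all rows) at 3 days under the spleen label and 1 (0.725%) at 1 day under the lymph node label, and moved no other count by over 1.5 times.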

Other observations

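Under the spleen label the ratio of Rpl39 to Rpl23 in treated libraries above 0 on the second component, at 0.670 to 0.889, lay near that of all 13 libraries labelled lymph node, at 0.723 to 0.986. Of 77 mitochondrial ribosomal protein genes, 15 were lower and 2 higher at 14 days than at 1 day under the spleen label. Of all rows, 5.41% were lower and 5.22% higher. Among the lower genes was Mrps14 (1817 ± 116 to 1072 ± 99.3, SD, n = 5 each, a log2 difference of −0.76 with a limma adjusted p of 0.00441). Naca, a chaperone subunit of the TOP class, fell from 9669 ± 1003 to 7397 ± 825 over the same comparison (−0.39, limma adjusted p = 0.0476).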
